A study of Homo sapiens with 6 samples.

Results

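ATP-binding cassette (ABC) genes encode proteins built around a conserved ATP-binding domain, and they are classed by sequence into subfamilies A to G. They were followed here in H226, an established human lung squamous carcinoma cell line that carried an inducible short hairpin RNA (shRNA) against p63. A member was any gene whose symbol reads ABC, a letter from A to G and a number, and that an array probe set names as its sole gene. This gave 43 members among the 18404 genes measured, with 12 in subfamily A, 8 in B, 11 in C, 3 in D, 1 in E, 3 in F and 5 in G. One of them, ABCC13, is annotated as a transcribed pseudogene. ABCB8 had 3 probe sets, and the brightest on average over the 6 arrays stood for it, as the same rule asks of any gene. The other members had 1 each.

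Affymetrix HuGene 1.0 ST arrays measured total RNA from 3 groups of cells, with 2 arrays a group and 6 in all, and each value is a log2 probe set intensity as the authors normalized it. All groups were H226 cells with the same inducible hairpin, grown in RPMI medium with fetal calf serum. Control cells were untreated and had the hairpin off (shp63 OFF). Nutlin-3 cells also had the hairpin off and received 10 µM Nutlin-3, a small molecule that blocks the binding of MDM2 to p53, for 12 h. The third group, shp63 ON, was given doxycycline at 1 µg/mL over 48 h to switch on the hairpin. Doxycycline was given to no other group and no array carried another hairpin, so an effect of the drug or of hairpin expression cannot be told apart from the loss of p63. The treatments also differed in length. The targeted gene was not analysed here, so the knockdown itself was not checked. The labels do not say whether the 2 arrays of a group came from separate cultures, and p-values then measure only the spread between arrays, which may be technical.

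Most ABC proteins use ATP to move a substrate across a membrane. Members of subfamilies A and G mainly carry phospholipids and sterols, several B and C members export drugs, bile salts and conjugated anions, and subfamily D works in peroxisomes and lysosomes. Proteins of subfamilies E and F have no membrane-spanning part and act with ribosomes. In stratified squamous epithelium the family is best known for ABCA12, which loads lipids into the lamellar granules of keratinocytes, and p53 and p63 are related transcription factors that bind similar DNA motifs.

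Of the 43 ABC genes, 7 rose and 2 fell with Nutlin-3, and 6 rose and 6 fell in shp63 ON, each against control. Changes were called at an adjusted p under 0.05 from limma's moderated test, with Benjamini-Hochberg adjustment over all 18404 genes. The rises with Nutlin-3 were ABCA1, ABCA5, ABCA12, ABCB6, ABCB9, ABCC2 and ABCD4, and the falls were ABCB10 and ABCG8. In shp63 ON the rises were ABCA7, ABCB8, ABCC1, ABCC2, ABCC3 and ABCG8, and the falls were ABCA12, ABCB10, ABCC5, ABCE1, ABCF2 and ABCG2. With Nutlin-3, 20.9% of the members were called, against 18.5% of all genes (9.64% higher, 8.89% lower). In shp63 ON the share was 27.9% of members against 36.2% of all genes (19.7% higher, 16.5% lower). The first share lay near the background and the second below it, and neither difference was tested. The levels differed too: 20 of the 43 members averaged under 6, and 5096 of the 18404 genes did. With dim genes left out, 4 of 16 members rose and 5 fell in shp63 ON, against 1910 and 2903 of 9202 genes. The share of members was then not below that of all genes. The median member differed from control by 0.06 with Nutlin-3 and by 0.03 in shp63 ON on the log2 scale, and the median of all genes by -0.00 and 0.04. The groups did not overlap for 26 of 43 members with Nutlin-3 and for 27 in shp63 ON, where 60.5% and 71.7% of all genes did the same. An exact permutation test of 2 arrays against 2 cannot give a two-sided p below 0.333, so the calls rest on the model. It pools the spread over all arrays and moderates the spread of each gene toward that of all genes.

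A few members moved far. ABCA12, ABCC2, ABCA1 and ABCB6 were called higher with Nutlin-3 by at least 0.5 log2, a size that 3.33% of all genes reached in that direction (2.34% in the other). In shp63 ON, ABCB8 and ABCC1 passed this size upward (3.01% of all genes) and ABCE1 and ABCA12 downward (6.07%). ABCA12 had the largest log2 rise of all 18404 genes with Nutlin-3 and ABCC2 ranked 8, whereas ABCA1 ranked 81 and ABCB6 415. Without control replicate 1, members higher with Nutlin-3 fell from 7 to 4 and members higher in shp63 ON from 6 to 3. Members lower with Nutlin-3 fell from 2 to 0 without control replicate 1 or control replicate 2, and to 1 without either Nutlin-3 array. With the analysis of variance without moderation, 4 members rose and 0 fell with Nutlin-3, and 2 rose and 4 fell in shp63 ON.

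**Figure D1:**
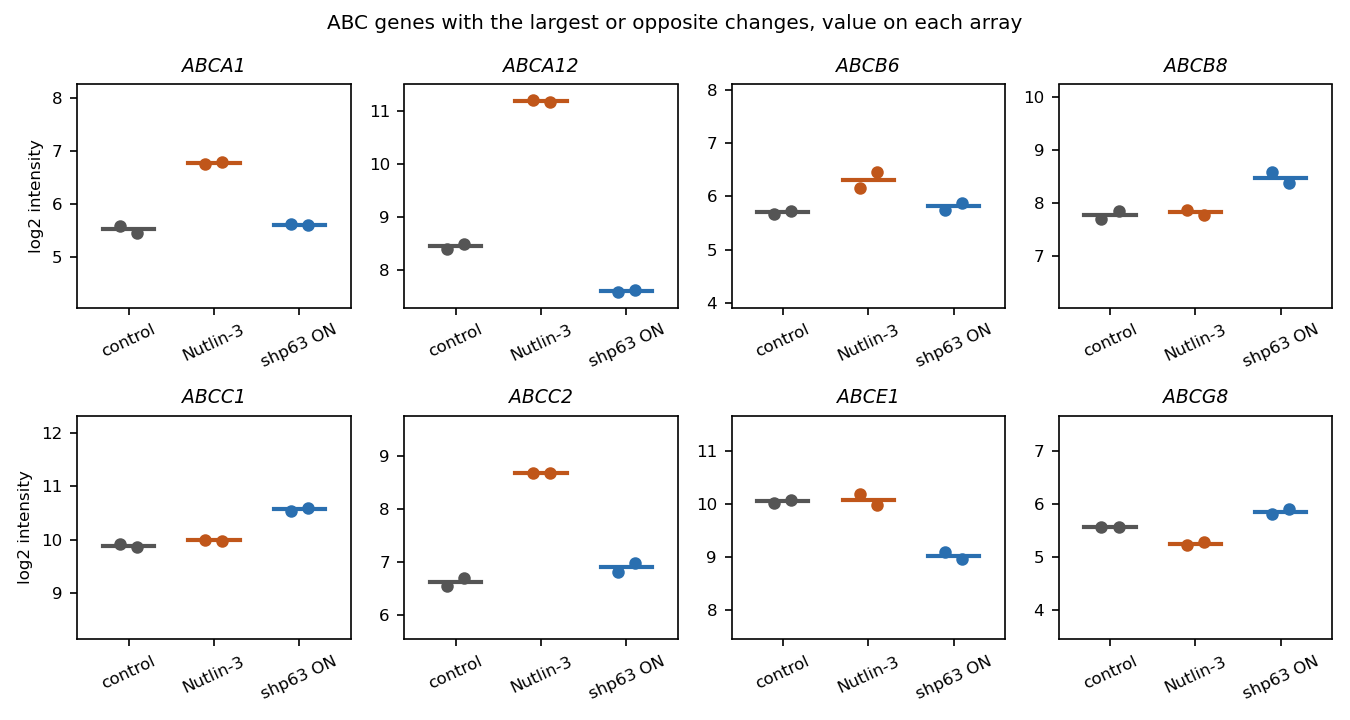
Log2 intensity (vertical axis) of the 8 ABC genes with the largest or opposite changes on each of the 6 arrays, by group on the horizontal axis; points are single arrays and lines are group means. ABCA12 and ABCC2 stand high on both Nutlin-3 arrays (11.17 and 11.21, 8.67 and 8.68), and ABCE1 stands low on both shp63 ON arrays (8.96 and 9.10).

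The promoters of the 3 members that rose most with Nutlin-3, and of the member that fell most in shp63 ON, are printed to show the sequence just before the start of each gene. Each is the 250 bases 5′ of an annotated start, read 5′ to 3′ on the gene's strand, from RefSeq (GRCh38.p14). Capitals mark matches on either strand to the p53 half-site decamer consensus, to the core of the antioxidant response element (TGACNNNGC) or to TATAAA. ABCA12 has 2 annotated starts, at chr2:215138627-215138876 (minus strand) and chr2:215032087-215032336 (minus strand). The ABCA1 window is chr9:104928156-104928405 (minus strand), that of ABCC2 chr10:99782390-99782639 (plus strand) and that of ABCE1 chr4:145098061-145098310 (plus strand).
ABCA12, upstream start: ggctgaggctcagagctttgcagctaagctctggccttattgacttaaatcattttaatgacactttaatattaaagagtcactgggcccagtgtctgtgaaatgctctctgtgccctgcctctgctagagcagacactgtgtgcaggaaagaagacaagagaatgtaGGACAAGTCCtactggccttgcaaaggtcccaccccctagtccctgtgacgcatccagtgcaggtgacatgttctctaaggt
ABCA12, downstream start: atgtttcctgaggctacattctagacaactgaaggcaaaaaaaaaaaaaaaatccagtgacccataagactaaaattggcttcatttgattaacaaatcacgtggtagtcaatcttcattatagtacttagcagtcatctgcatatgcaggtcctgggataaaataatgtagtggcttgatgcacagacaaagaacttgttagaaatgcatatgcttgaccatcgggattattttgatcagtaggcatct
ABCA1: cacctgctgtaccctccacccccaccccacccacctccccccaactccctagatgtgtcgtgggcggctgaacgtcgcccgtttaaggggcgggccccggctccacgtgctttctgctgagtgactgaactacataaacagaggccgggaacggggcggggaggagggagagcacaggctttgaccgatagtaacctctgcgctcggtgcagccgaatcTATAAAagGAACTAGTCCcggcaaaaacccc
ABCC2: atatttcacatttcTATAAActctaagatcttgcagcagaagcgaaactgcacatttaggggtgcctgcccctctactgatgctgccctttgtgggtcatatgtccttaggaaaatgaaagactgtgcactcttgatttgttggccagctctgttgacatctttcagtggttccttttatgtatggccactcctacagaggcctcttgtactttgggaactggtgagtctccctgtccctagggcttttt
ABCE1: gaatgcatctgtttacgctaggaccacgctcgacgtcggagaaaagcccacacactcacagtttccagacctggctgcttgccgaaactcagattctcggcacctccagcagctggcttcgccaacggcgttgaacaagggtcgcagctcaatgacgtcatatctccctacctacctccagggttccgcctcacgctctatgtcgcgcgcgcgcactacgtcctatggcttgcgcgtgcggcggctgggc
A match to the decamer lay 82 to 73 bases before the upstream start of ABCA12 and 23 to 14 bases before the start of ABCA1, where TATAAA lay just 5′ of it, 31 to 26 bases before the start. ABCC2 held TATAAA 236 to 231 bases before its start and none of the other motifs. Promoters were found for 34 of the 43 members, 51 windows in all. The decamer was in 8 of these 51 windows (15.7%, 7 genes, ABCC11 with 2 windows) and in 5.57% of the 35116 windows of the RefSeq table. The antioxidant core was in 17.6% and 10.9%, and TATAAA in 11.8% and 10.7%. None of these differences was tested. The other genes with a decamer match were ABCA6, ABCC5, ABCC11, ABCD2 and ABCG4, and none of these 5 was called with Nutlin-3. A match is a description of the letters in the window, not a bound site.

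Among the lipid and sterol carriers (17 members: subfamily A, ABCB4 and subfamily G without ABCG2), 3 rose and 1 fell with Nutlin-3, and 2 rose and 1 fell in shp63 ON. These are 23.5% and 17.6% of the list, against 18.5% and 36.2% of all genes. The median difference was 0.11 with Nutlin-3 and 0.01 in shp63 ON. ABCA12, the keratinocyte lipid carrier whose loss causes harlequin ichthyosis, read 8.41 and 8.49 on the control arrays. It read 11.21 and 11.17 with Nutlin-3 and 7.58 and 7.63 in shp63 ON. The 3 groups did not overlap, with Nutlin-3 highest and shp63 ON lowest. The rise with Nutlin-3 was 6.68-fold (log2 2.74, SE 0.06, limma adjusted p = 2.89e-06) and the fall in shp63 ON was 1.79-fold (log2 -0.84, SE 0.06, limma adjusted p = 0.000123). Set directly against Nutlin-3, shp63 ON was 12.0-fold lower (log2 -3.58, limma adjusted p = 7.74e-07). Only 2 of the 18404 genes had a lower difference in that comparison.

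ABCA1, which passes cholesterol and phospholipid to apolipoprotein A-I, read 5.60 and 5.47 in control, 6.76 and 6.80 with Nutlin-3, and 5.62 and 5.62 in shp63 ON. Both Nutlin-3 arrays stood clear of the other 4, which were dim and lay close together. The rise was 2.37-fold (log2 1.24, SE 0.07, limma adjusted p = 3.04e-05). In shp63 ON the difference was 0.09 (95% interval -0.07 to 0.25, limma adjusted p = 0.363), and shp63 ON was 2.23-fold lower than Nutlin-3 (limma adjusted p = 2.43e-05). ABCA5, a lysosomal member, rose by 0.47 log2 with Nutlin-3 (SE 0.07, limma adjusted p = 0.00502; 0.0732 without moderation), and its difference in shp63 ON was -0.21 (limma adjusted p = 0.0580). The latter passed the threshold under each of the 3 other normalizations (0.0252 with arrays centred on their medians, 0.0220 with quantile normalization and 0.0147 with cyclic loess) and when the spread was estimated without the Nutlin-3 arrays (0.0465). ABCA5 lies at the end of a row of neighbouring ABCA genes. The other members of that row, ABCA6, ABCA8, ABCA9 and ABCA10, were dim, between 4.11 and 4.57 in control. They differed by 0.01 to 0.18 with Nutlin-3, none called. ABCA7, a phospholipid carrier related to ABCA1, rose in shp63 ON by 0.35 log2 (SE 0.07, limma adjusted p = 0.00866), a call lost without control replicate 1 (0.0523) or without moderation (0.0580). The other members of subfamily A (ABCA2, ABCA3, ABCA4 and ABCA13) were called in neither comparison with control.

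ABCG8, which pairs with ABCG5 to export sterols, was the other member on opposite sides of control. It read 5.57 and 5.58 in control, 5.22 and 5.29 with Nutlin-3, and 5.81 and 5.91 in shp63 ON. The groups did not overlap, but the values are dim and the differences small. It fell with Nutlin-3 by 0.32 log2 (SE 0.07, limma adjusted p = 0.0155) and rose in shp63 ON by 0.29 (SE 0.07, limma adjusted p = 0.0136). The first call was lost without control replicate 1 (0.0899), control replicate 2 (0.0830), Nutlin-3 replicate 1 (0.0678) or moderation (0.0697). The second was lost without control replicate 1 (0.0663), control replicate 2 (0.0684), shp63 ON replicate 2 (0.0696) or moderation (0.0512), and with cyclic loess (0.0757). The direct difference between shp63 ON and Nutlin-3, 0.60 log2, was called (limma adjusted p = 0.000303). ABCG5 differed by -0.15 with Nutlin-3 and 0.06 in shp63 ON, neither called. Across all genes, 5.86% were called on opposite sides of control in the 2 comparisons, which share the control arrays, and 2 of 43 members were. ABCG1, a cholesterol exporter, differed by 0.33 with Nutlin-3 (SE 0.12, limma adjusted p = 0.0952) and passed the threshold without Nutlin-3 replicate 1 (0.0285). ABCG4 and ABCB4 were called in neither comparison.

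Among the 12 members known or classed as exporters of drugs, bile salts and conjugates, 1 rose and 0 fell with Nutlin-3, and 3 rose and 2 fell in shp63 ON. These are 8.33% and 41.7% of the list, against 18.5% and 36.2% of all genes, the second near its background. ABCC2 (MRP2), which exports conjugated bilirubin and glutathione conjugates at the apical membrane, read 6.55 and 6.70 in control. It read 8.67 and 8.68 with Nutlin-3 and 6.82 and 6.98 in shp63 ON. Both Nutlin-3 arrays were far above the rest, and the shp63 ON arrays were just above control. The rise with Nutlin-3 was 4.15-fold (log2 2.05, SE 0.08, limma adjusted p = 9.27e-06), and shp63 ON was 3.43-fold lower than Nutlin-3 (limma adjusted p = 9.70e-06). Its rise in shp63 ON was small (log2 0.27, SE 0.08, limma adjusted p = 0.0349). That call was lost without control replicate 1 (0.185), control replicate 2 (0.0526), shp63 ON replicate 2 (0.169) or moderation (0.142). It was also lost under each of the 3 other normalizations, with arrays centred on their medians (0.0825), quantile normalization (0.0820) and cyclic loess (0.0756), and the adjusted p ran from 0.0142 to 0.185 over all alternatives.

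ABCC1 (MRP1), which exports glutathione conjugates and several anticancer drugs, read 9.91 and 9.85 in control, 10.00 and 9.97 with Nutlin-3, and 10.55 and 10.59 in shp63 ON. Both shp63 ON arrays were above the other 4. The rise was 1.61-fold (log2 0.69, SE 0.06, limma adjusted p = 0.000274), and with Nutlin-3 the difference was 0.11 (limma adjusted p = 0.290). Set directly against Nutlin-3, shp63 ON was higher by 0.58 log2 (limma adjusted p = 0.000281). ABCC3 (MRP3), a basolateral exporter of conjugates, rose in shp63 ON by 0.43 log2 (SE 0.07, limma adjusted p = 0.00283). ABCC5 (MRP5), which carries cyclic nucleotides, fell by 0.45 (SE 0.07, limma adjusted p = 0.00287), and ABCG2, the breast cancer resistance protein, fell by 0.44 (SE 0.08, limma adjusted p = 0.00553; 0.0668 without moderation). With Nutlin-3 these 3 differed by 0.19, 0.22 and -0.01 and were not called. ABCC5 passed the threshold there under each of the 3 other normalizations. Its limma adjusted p was 0.0274 with arrays centred on their medians, 0.0436 with quantile normalization and 0.0374 with cyclic loess. ABCC3 passed with arrays centred on their medians (0.0350) and with dim genes left out (0.0342). The exporters called in shp63 ON thus moved in both directions.

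ABCB1, the P-glycoprotein of multidrug resistance, averaged 5.23 (control), 5.19 (Nutlin-3) and 5.18 (shp63 ON). The differences were -0.04 with Nutlin-3 (95% interval -0.21 to 0.12) and -0.05 in shp63 ON (-0.21 to 0.11), not called in either. These levels are dim, below the median of every array (6.57 to 6.70), and whether ABCB1 was detected was not tested. The remaining exporters (ABCB5, ABCB11, ABCC4, ABCC10, ABCC11 and ABCC12) were called in neither comparison, nor were the potassium channel subunits ABCC8 and ABCC9 (sulfonylurea receptors) or the pseudogene ABCC13.

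**Figure D2:**
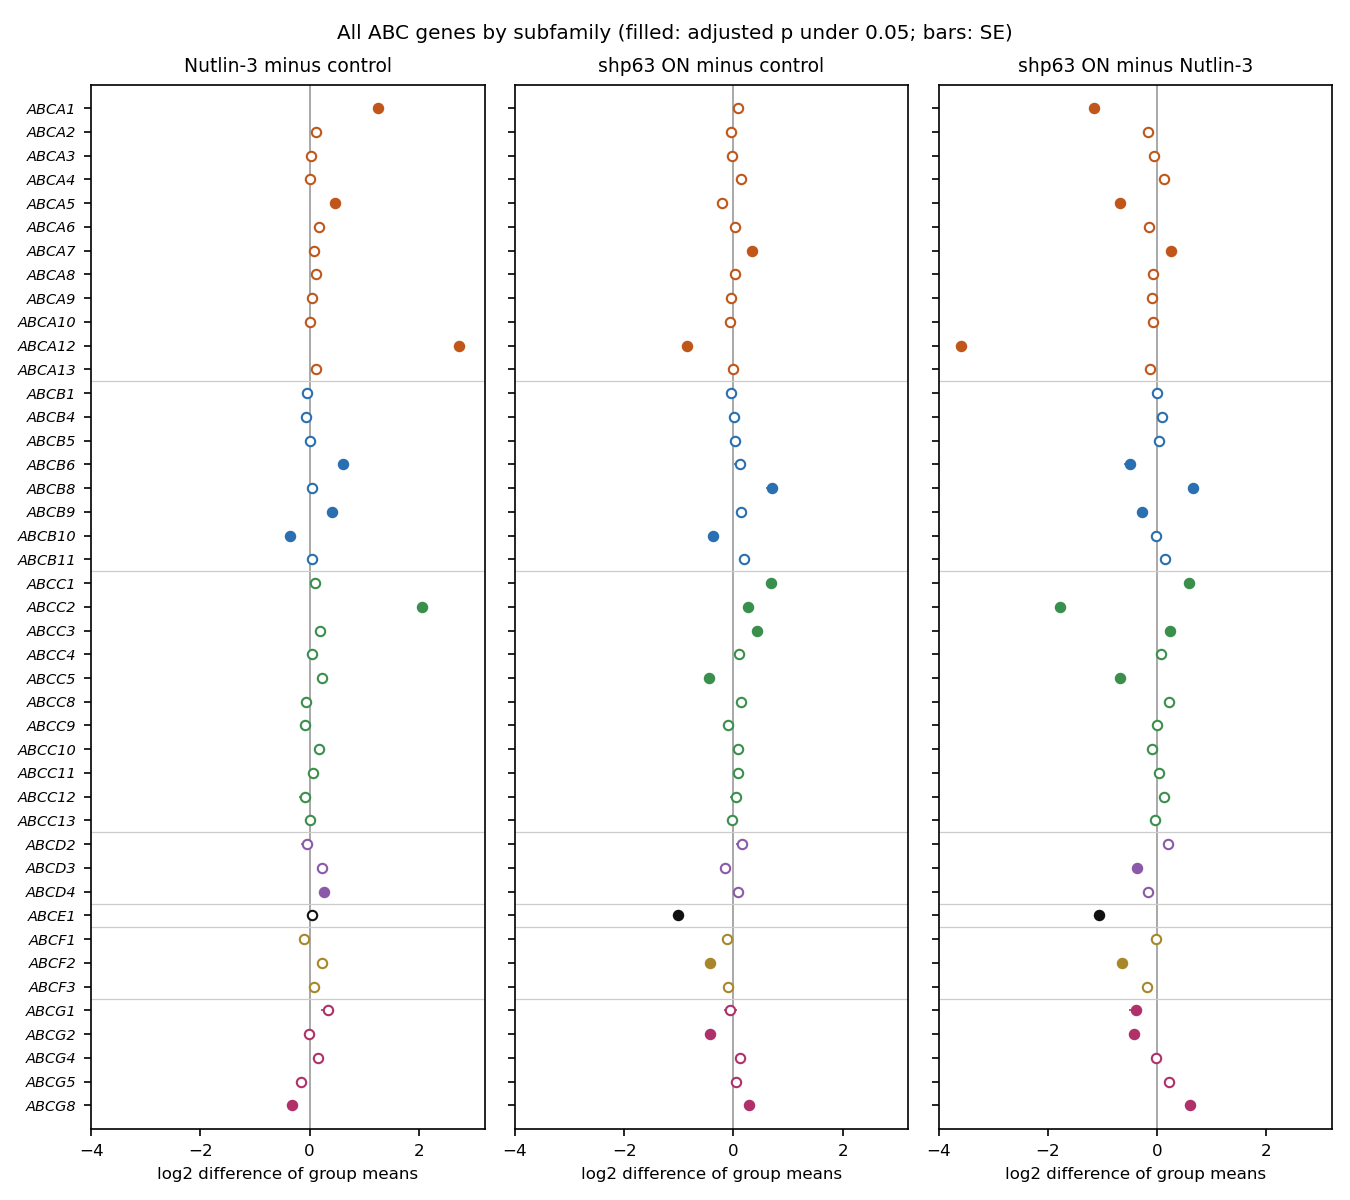
Log2 difference of group means (horizontal axis) for all 43 ABC genes, listed by subfamily on the vertical axis, in the 3 comparisons; filled points have an adjusted p under 0.05, and bars are standard errors. ABCA12 (2.74) and ABCC2 (2.05) lie far to the right with Nutlin-3, and ABCE1 (-1.02) lies lowest in shp63 ON against control.

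ABCB6 carries porphyrins, while ABCB8 and ABCB10 sit in the mitochondrial inner membrane and are linked to iron and heme handling. ABCB6 read 5.67 and 5.73 in control, 6.16 and 6.47 with Nutlin-3, and 5.75 and 5.87 in shp63 ON. Both Nutlin-3 arrays were highest, though they lay further apart than the arrays of the other groups. The rise with Nutlin-3 was 1.53-fold (log2 0.62, SE 0.10, limma adjusted p = 0.00653) and was not called without control replicate 1 (0.0561) or without moderation (0.116). In shp63 ON the difference was 0.11 (limma adjusted p = 0.426). ABCB8 read 7.71 and 7.86 in control, 7.88 and 7.79 with Nutlin-3, and 8.59 and 8.37 in shp63 ON. Control and Nutlin-3 overlapped, and shp63 ON lay above both. Its rise in shp63 ON was 1.62-fold (log2 0.70, SE 0.09, limma adjusted p = 0.00147; 0.0521 without moderation). The other 2 ABCB8 probe sets also differed upward there, by 0.35 and 0.34. With Nutlin-3 the 3 probe sets disagreed, at 0.05, -0.19 and -0.45. ABCB10 fell in both, by 0.36 with Nutlin-3 (SE 0.08, limma adjusted p = 0.0198) and by 0.37 in shp63 ON (SE 0.08, limma adjusted p = 0.00966). Neither call was stable: without control replicate 1 the adjusted p was 0.130 and 0.0633. The first was also lost without control replicate 2 (0.0631) or Nutlin-3 replicate 2 (0.0877), and the second without shp63 ON replicate 1 (0.0578). Without moderation they were 0.124 and 0.0809. ABCB10 and ABCC2 were the 2 members called in the same direction in both, where 4.25% of all genes were.

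ABCB9, a lysosomal peptide carrier, rose with Nutlin-3 by 0.40 log2 (SE 0.08, limma adjusted p = 0.00982). The call was lost without control replicate 1 (0.0805) or without moderation (0.0909). Of the 3 members of subfamily D, ABCD4, which helps release cobalamin from lysosomes, rose with Nutlin-3 by 0.26 (SE 0.06, limma adjusted p = 0.0261). That call was lost without control replicate 1 (0.148), control replicate 2 (0.0921), Nutlin-3 replicate 1 (0.0914) or Nutlin-3 replicate 2 (0.0664). ABCD2 and ABCD3, peroxisomal carriers of fatty acids, were called in neither comparison with control.

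The soluble members moved down or were not called in shp63 ON. ABCE1, which splits ribosomes after termination, read 10.02 and 10.08 in control, 10.20 and 9.97 with Nutlin-3, and 9.10 and 8.96 in shp63 ON. Control and Nutlin-3 overlapped, and both shp63 ON arrays lay about 1 log2 unit lower. The fall was 2.03-fold (log2 -1.02, SE 0.09, limma adjusted p = 0.000249), and shp63 ON was 2.08-fold lower than Nutlin-3 (limma adjusted p = 0.000111). With Nutlin-3 the difference from control was 0.04 (95% interval -0.17 to 0.25). ABCF2 fell in shp63 ON by 0.43 (SE 0.06, limma adjusted p = 0.00241) and differed by 0.22 with Nutlin-3 (limma adjusted p = 0.0525, called in 3 alternatives). ABCF1, which takes part in translation initiation, and ABCF3 differed in shp63 ON by -0.11 and -0.10, not called.

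Set directly against Nutlin-3, shp63 ON had 5 members higher and 12 lower. These are 39.5% of members, where 51.5% of all genes were called (27.5% higher, 24% lower). With dim genes left out, 3 of 16 members were higher and 8 lower, against 2136 and 3782 of 9202 genes. The share of members was then not below that of all genes. The groups did not overlap for 36 of 43 members, against 76.7% of all genes. Of the 43 members, 11 were called with a difference of at least 0.5 log2, as were 3458 of all 18404 genes (9.3% upward, 9.49% downward). Those upward were ABCB8, ABCC1 and ABCG8, and the rest of the 11 were lower. The higher members were ABCA7, ABCB8, ABCC1, ABCC3 and ABCG8. The lower ones were ABCA1, ABCA5, ABCA12, ABCB6, ABCB9, ABCC2, ABCC5, ABCD3, ABCE1, ABCF2, ABCG1 and ABCG2. The higher count fell to 3 without Nutlin-3 replicate 2 or shp63 ON replicate 1. ABCA7 lost its call without either Nutlin-3 array, without shp63 ON replicate 1, without moderation and under all 3 other normalizations (highest adjusted p 0.140). ABCC3 lost it without Nutlin-3 replicate 2, shp63 ON replicate 1 or moderation, and with arrays centred on their medians (highest 0.181). Of the lower members, ABCB9 lost its call without Nutlin-3 replicate 1, either shp63 ON array or moderation (highest 0.0987). ABCD3 lost it without Nutlin-3 replicate 1, shp63 ON replicate 2 or moderation, and with quantile normalization (highest 0.0967). ABCG1 lost it without Nutlin-3 replicate 2, shp63 ON replicate 2 or moderation (highest 0.163), and ABCB6 without moderation (0.0791). Centring each array on its median moved the median of all genes in this comparison by -0.12 and gave 3 members higher and 21 lower, so the split leans further down on that scale (12.5% higher in place of 29.4%). For all genes the same step moved the share higher among called genes from 53.3% to 33.5%. Calls of lower members were also gained. ABCA13 passed under each of the 3 other normalizations (highest adjusted p 0.0460). ABCD4 passed with arrays centred on their medians, with cyclic loess, without moderation and with dim genes left out (highest 0.0385). ABCF3 passed with arrays centred on their medians (0.0130) and with dim genes left out (0.0489). In the main fit, 19 members were called in at least 1 of the 3 comparisons and 24 in none.

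By subfamily the counts were small, and are read against the 18.5% and 36.2% of all genes called with Nutlin-3 and in shp63 ON. In subfamily A, 3 of 12 rose with Nutlin-3 and 0 fell (median 0.11), and 1 rose and 1 fell in shp63 ON (median -0.02). In subfamily B, 2 of 8 rose and 1 fell with Nutlin-3 (median 0.02), and 1 rose and 1 fell in shp63 ON (median 0.07). In subfamily C, 1 of 11 rose with Nutlin-3 (median 0.06), and 3 rose and 1 fell in shp63 ON (median 0.09). In subfamily D, 1 of 3 (ABCD4, a call lost without any 1 control or Nutlin-3 array) rose with Nutlin-3 (median 0.22) and none was called in shp63 ON (median 0.09). The single member of E and 1 of 3 in F fell in shp63 ON, and none of these 4 was called with Nutlin-3. In subfamily G, 1 of 5 fell with Nutlin-3 (median -0.01), and 1 rose and 1 fell in shp63 ON (median 0.06). Levels of different probe sets were not set against each other. In shp63 ON the even split of called members (6 higher, 6 lower) depended on scaling: it was 5 and 7 with arrays centred on their medians or quantile normalized, and 4 and 7 with cyclic loess.

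**Figure D3:**
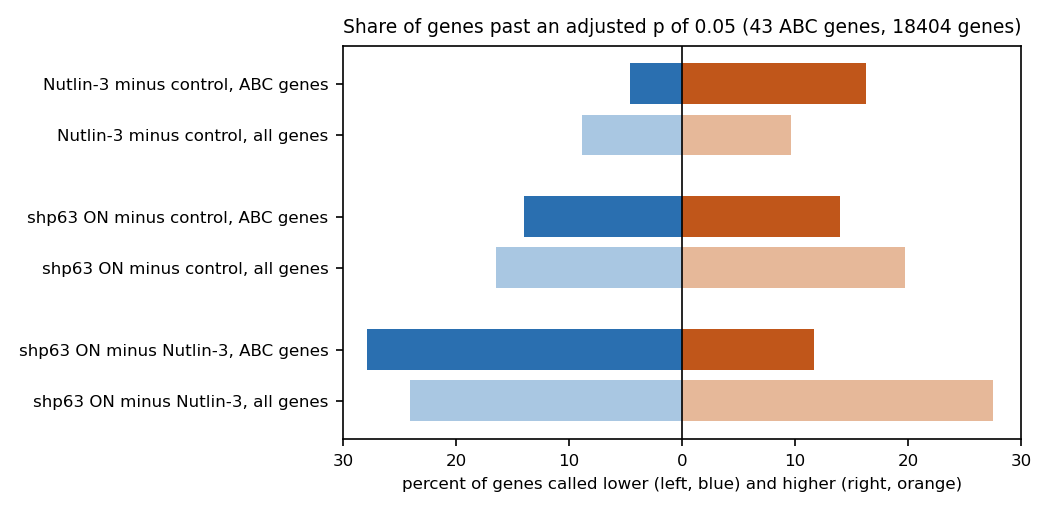
Percent of genes called lower (left) and higher (right) on the horizontal axis, for the 43 ABC genes and for all 18404 genes in each of the 3 comparisons. Both directions together came to 20.9% of ABC genes and 18.5% of all genes with Nutlin-3, and to 27.9% and 36.2% in shp63 ON.

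Genes that work with ABC proteins were read from lists of partners and regulators, whose shares called stand against 18.5% of all genes with Nutlin-3 and 36.2% in shp63 ON. Of 17 cholesterol and phospholipid partners, 4 rose and 0 fell with Nutlin-3, and 4 rose and 3 fell in shp63 ON. These are 23.5% and 41.2% of the list. PLTP, a phospholipid transfer protein, rose with Nutlin-3 by 2.09 log2 (SE 0.07, limma adjusted p = 3.77e-06) and fell in shp63 ON by 0.53 (SE 0.07, limma adjusted p = 0.00117). LPCAT3, a phospholipid-remodelling enzyme, rose with Nutlin-3 by 0.59. In shp63 ON, VLDLR, a lipoprotein receptor, rose by 0.81 and APOE, a lipid acceptor, by 0.43, while SOAT1, which esterifies cholesterol for storage, fell by 0.53 and the receptor SCARB1 by 0.49. Without control replicate 1 the 4 rises with Nutlin-3 became 2, and without it or shp63 ON replicate 2 so did the 4 rises in shp63 ON.

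Of 23 epidermal lamellar lipid genes, which make or process the lipids that ABCA12 helps deliver, 2 rose and 2 fell with Nutlin-3, and 8 rose and 3 fell in shp63 ON. These are 17.4% and 47.8% of the list. CERS3, a ceramide synthase, rose with Nutlin-3 by 0.83 (SE 0.10, limma adjusted p = 0.00179), and was the only rise left without control replicate 1 or control replicate 2. Neither fall was called when any 1 array was left out. In shp63 ON, SULT2B1, a cholesterol sulfotransferase, rose by 0.92 and FA2H, a fatty acid hydroxylase, by 0.76, while NIPAL4 fell by 0.72 and the elongase ELOVL4 by 0.64. ABCA12 fell there, so in the main fit this list held genes called both with and against it. Over all alternatives the 8 rises came down to 5 at the lowest, and the 3 falls to 0.

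Of 22 glutathione and conjugation genes, 4 rose and 1 fell with Nutlin-3 (22.7% called), and 3 rose and 5 fell in shp63 ON (36.4%). MGST2, a glutathione transferase, rose with Nutlin-3 by 0.55 and GSS, glutathione synthetase, by 0.52, while the estrogen sulfotransferase SULT1E1 fell by 0.61. In shp63 ON the transferase GSTK1 rose by 0.59. The 2 subunits of the first enzyme of glutathione synthesis, GCLC and GCLM, each fell by 0.47. The call of GCLC was lost without any 1 control or shp63 ON array, and that of GCLM without control replicate 1 or shp63 ON replicate 2. The 5 falls became 2 without control replicate 1 and 3 without control replicate 2 or shp63 ON replicate 2. The 4 rises with Nutlin-3 became 2 without control replicate 1 or Nutlin-3 replicate 1.

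Of 20 heme and iron-sulfur cluster genes, 5 rose and 1 fell with Nutlin-3 (30% called), and 2 rose and 5 fell in shp63 ON (35%). The scaffold ISCU rose with Nutlin-3 by 1.13 and the heme oxygenase HMOX1 by 0.67. In shp63 ON, SLC25A37, the mitochondrial iron importer, fell by 0.61. The 5 rises became 2 or 3 without any 1 array other than Nutlin-3 replicate 2, and the 1 fall became 0 without any 1 array other than Nutlin-3 replicate 1. The 5 falls became 2 or 3 without control replicate 1, control replicate 2 or shp63 ON replicate 2, and the 2 rises in shp63 ON became 0 without control replicate 1 or shp63 ON replicate 1. Of 17 peroxisomal fatty acid genes, 4 rose and 2 fell with Nutlin-3 (35.3% called), and 4 rose and 4 fell in shp63 ON (47.1%). CROT, a carnitine transferase, rose with Nutlin-3 by 1.18, and the receptor PEX5 fell in shp63 ON by 0.62. The 4 rises with Nutlin-3 became 2 without control replicate 1, the 2 falls became 1 without any 1 array, and the 4 falls in shp63 ON became 2 without control replicate 1, control replicate 2 or shp63 ON replicate 1.

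Of 18 ribosome recycling and initiation partners of ABCE1 and ABCF1, 1 rose and 0 fell with Nutlin-3 (5.56% called), and 0 rose and 10 fell in shp63 ON, 55.6% against 16.5% of all genes lower. The median in shp63 ON was -0.30, and all 18 differences were below 0 there, although EIF1 and EIF6 turned above 0 with cyclic loess, and EIF1 also with quantile normalization. EIF1AX, an initiation factor, fell by 0.49, EIF5B, which joins the subunits, by 0.45, and EIF2AK4, the kinase GCN2, by 0.49. EIF2AK4 was the 1 gene that rose with Nutlin-3, by 0.47. The 10 falls became 6 without control replicate 1, control replicate 2 or shp63 ON replicate 2. ABCE1 fell by more than any of these 18.

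Of 11 measured regulators known for ABC genes, 3 rose and 0 fell with Nutlin-3 (27.3% called), and 2 rose and 2 fell in shp63 ON (36.4%). The nuclear receptor RXRA rose with Nutlin-3 by 0.29 and fell in shp63 ON by 0.45, and PPARA rose in shp63 ON by 0.35. The rises with Nutlin-3 became 0 without control replicate 1, and the counts in shp63 ON became 1 without some arrays, among them control replicate 2 and shp63 ON replicate 1. Of 18 uptake carriers, 0 rose and 2 fell with Nutlin-3 (11.1% called), and 3 rose and 3 fell in shp63 ON (33.3%). The prostaglandin carrier SLCO2A1 fell with Nutlin-3 by 0.64 and the folate carrier SLC19A1 fell in shp63 ON by 0.49. Each count of 2 or 3 became 1 without control replicate 1. Of the 3 ABC proteins that carry other symbols, the peptide transporter subunit TAP1 rose with Nutlin-3 by 0.59 (SE 0.07, limma adjusted p = 0.00173), and TAP2 and CFTR were called in neither.

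**Figure D4:**
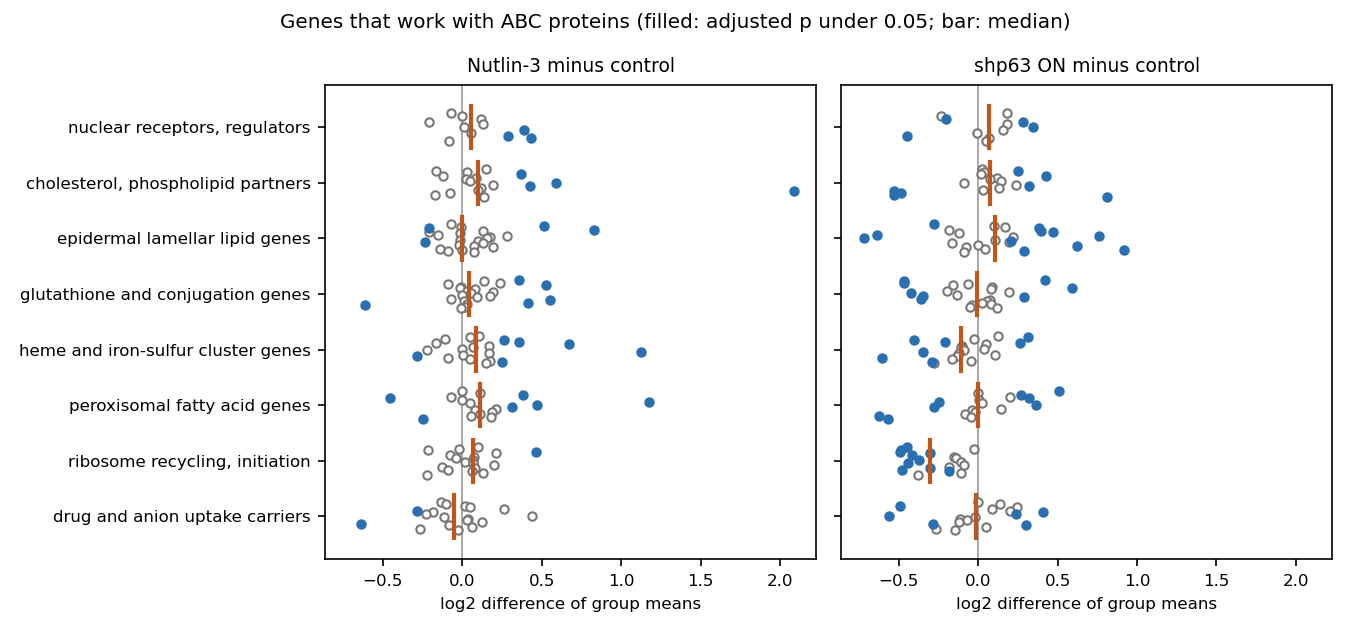
Log2 difference of group means (horizontal axis) for each measured gene of 8 partner lists (vertical axis), one panel for each treatment against control; filled points have an adjusted p under 0.05 and the bar is the list's median. As normalized by the authors, the ribosome recycling list lies below 0 in shp63 ON (median -0.30), EIF1 and EIF6 crossing 0 with cyclic loess, and PLTP (2.09) lies farthest to the right with Nutlin-3.

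Markers of the line and of other cell types were read beside these results. Their counts stand against all genes, of which 9.64% rose and 8.89% fell with Nutlin-3. In shp63 ON these shares were 19.7% and 16.5%, and no marker list was tested against them. Of 10 squamous epithelial markers measured, 6 rose and 0 fell with Nutlin-3, and 2 rose and 6 fell in shp63 ON. Over all alternatives the rises in shp63 ON ran from 0 to 2 and the falls from 5 to 7. Their summed linear intensity was 15410 to 15910 in control, 21230 to 22290 with Nutlin-3 and 12040 to 12660 in shp63 ON, the same order as ABCA12. DSG3, a desmosomal cadherin, differed by 2.03 and -0.73, and CLCA2 by 1.84 and -0.44, each called in both. Other squamous markers went the other way. With Nutlin-3, 2 of the 10 differed downward (lowest -0.26), neither called. In shp63 ON, 3 differed upward (highest 0.36), 2 of them called. The part of these markers in the result for ABCA12 was not tested. The squamous keratin KRT5 averaged 12.3 in control. The summed level of 8 mesothelial markers was 9823 to 10610 over all arrays. That of 9 hepatocyte markers, a cell type that uses ABCC2, was 419.4 to 432.6 in control, 526.7 to 527.2 with Nutlin-3 and 477.3 to 480.7 in shp63 ON, and 8 of the 9 were under 6 in control. One of them, SERPINA1, rose with Nutlin-3 by 0.80. Leukocyte markers summed to 1246 to 1257 in control, 1489 to 1550 with Nutlin-3 and 1833 to 1835 in shp63 ON, fibroblast markers to 583.8 to 689.0 and endothelial markers to 514.1 to 882.6 over all arrays. Counts of rises and falls were 1 and 0 (Nutlin-3) and 2 and 1 (shp63 ON) for mesothelial markers, 1 and 0, then 3 and 0 for hepatocyte, and 2 and 0, then 4 and 0 for leukocyte. They were 0 and 0, then 2 and 0 for fibroblast, and 1 and 1, then 2 and 0 for endothelial markers. Of these, the calls of mesothelial, hepatocyte and fibroblast markers higher in shp63 ON all vanished without control replicate 2 or shp63 ON replicate 2. The 2 leukocyte rises with Nutlin-3 became 1 without any 1 control or Nutlin-3 array, the endothelial rise with Nutlin-3 became 0 without any of the same arrays, and its fall became 0 without control replicate 1. The 2 endothelial rises in shp63 ON became 1 without either control array or shp63 ON replicate 1. Their part in the results was not tested, and arrays give no true 0 for any marker.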

How the data were processed

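One table of log2 probe set intensities was deposited. The authors had normalized it, and the submitters' processing notes name Partek without a version. The methods of background correction and normalization were not given in the sources used here. The log2 scale was inferred from a range of 2.94 to 14.9. In the platform annotation 19158 of 32321 probe sets name 1 gene, 1388 name several and 11775 none. Those naming 1 gene stand for 18404 genes, and 19128 of them were matched to RefSeq by Entrez identifier. For 637 genes with more than 1 probe set, the one with the highest mean was kept. Pairs of arrays correlated at 0.997 to 0.998 within groups and at 0.975 to 0.989 between them. Precision is limited by the number of arrays.

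The model had a mean for each group over the 6 arrays and no covariates, after the one-way design the submitters name, and left 3 residual degrees of freedom (limma 3.58.1, lmFit and eBayes, R 4.3.3). P-values were adjusted by Benjamini-Hochberg across the 18404 genes and called under 0.05. Intervals are 95% and unadjusted. The fit was tested on simulated data. Members and gene lists were chosen with earlier results of these data known. Members called against control with a log2 difference of at least 0.5, or on opposite sides of control, are given array by array, and of each further list up to 4 called genes per comparison are named. No filter on dim genes was used. Alternatives were leaving out each array, a replicate block, other normalizations, other tests, a filter on dim genes and the mean of a gene's probe sets.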

Additional observations from a re-analysis of the deposited data

How the results depend on the processing

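None of the 16 alternatives reversed a called difference of an ABC gene. Over members and alternatives, the call with Nutlin-3 stayed on its side of the threshold 635 times, was lost 17 times and gained 9 times. In shp63 ON against control these were 636, 19 and 6, and in shp63 ON against Nutlin-3 619, 23 and 19. ABCA12, ABCA1 and ABCC2 with Nutlin-3, and ABCA12, ABCC1, ABCC3, ABCC5, ABCE1 and ABCF2 in shp63 ON, were called under all that could be run for them. Leaving out 1 array at a time gave 4 to 7 ABC genes higher and 0 to 2 lower with Nutlin-3, 3 to 6 higher and 5 to 7 lower in shp63 ON, and 3 to 6 higher and 9 to 12 lower in shp63 ON against Nutlin-3. Over all genes it gave 777 to 1603 higher and 628 to 1388 lower with Nutlin-3, and 1639 to 3858 higher and 1815 to 3102 lower in shp63 ON. Analysis of variance without moderation gave 4 ABC genes higher and 0 lower with Nutlin-3, 2 higher in shp63 ON and 3 higher in shp63 ON against Nutlin-3. Over all genes it gave 687 higher and 549 lower with Nutlin-3, 1338 higher and 1665 lower in shp63 ON, and 3019 higher in shp63 ON against Nutlin-3. Arrays centred on their medians gave 3 ABC genes higher and 21 lower in shp63 ON against Nutlin-3, and over all genes 1062 lower with Nutlin-3 (71.1% of calls higher in place of 52%), 2418 higher in shp63 ON (38.6% in place of 54.5%) and 3314 higher in shp63 ON against Nutlin-3. Leaving out dim genes kept 16 of the 43 ABC genes and 9202 genes, so fewer could be counted. Of these 16, 5 were higher and 1 lower with Nutlin-3, and 4 and 5 in shp63 ON. In shp63 ON against Nutlin-3, 3 were higher and 8 lower. Over all genes the filter gave 1923 higher and 1411 lower with Nutlin-3, and 1910 and 2903 in shp63 ON. In shp63 ON against Nutlin-3 it gave 2136 and 3782. Not every count fell, and genes higher with Nutlin-3 went from 1774 to 1923. The cause of these shifts was not tested. Deviations of same-numbered arrays correlated at -0.06, -0.02 and 0.11, so no strong effect shared by replicate number was seen. This cannot show whether same-numbered arrays were handled together, and the labels do not say. With the replicate block the counts were 7 higher and 2 lower with Nutlin-3, 6 and 6 in shp63 ON, and 5 and 12 in shp63 ON against Nutlin-3, as without it.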
